A study of Mus musculus with 4 samples.

Results

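The respiratory chain subunits encoded in the nucleus were followed through the cells of lungs carrying breast tumour cells. They were taken by gene symbol: the Nduf genes of complex I, the 4 Sdh genes of complex II, the Uqcr genes of complex III, the Cox4 to Cox8 genes of complex IV and the Atp5 genes of complex V, without rows named as pseudogenes. This gave 84 of the 31053 rows of the gene table, with 37, 4, 8, 18 and 17 members in complexes I to V, and 81 of them had at least 1 UMI (unique molecular identifier, a tag that counts 1 captured RNA molecule once). Cox7b2, Cox8c and the second of 2 rows named Atp5o had 0 UMIs, and a count of 0 limits Cox7b2 and Cox8c to at most 0.0430 CPM (UMIs per 1000000 UMIs). The rule left out Ndufab1 and the assembly factors. Members are grouped by their symbols, although Ndufa4 is now counted as a subunit of complex IV.

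All libraries came from Balb/c mice that received 4T1 cells into a vein; 4T1 is a Balb/c mammary tumour line that seeds the lung. The injected cells were wild type (WT, 2 libraries) or lacked PD-L1, which binds PD-1 and restrains T cells (PD-L1 KO, 2 libraries). On day 14 the lungs were perfused and digested with collagenase, and leukocytes were selected with beads against CD45. Only the injected tumour cells differ by design, the host is the same in all 4 libraries, and the labels do not say whether each library is a separate mouse, so p-values measure the spread between libraries, which may be technical.

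The respiratory chain sits in the inner mitochondrial membrane. Complexes I and II pass electrons from NADH and succinate to ubiquinone, complex III passes them on to cytochrome c, and complex IV passes them to oxygen; the proton gradient so made drives complex V, the ATP synthase. Complex II is built from nuclear genes only, while the other complexes also hold subunits made from mitochondrial DNA. Several complex IV subunits have a common form and a second form known from muscle, lung or testis. Neutrophils are known for living largely from glycolysis, and alveolar macrophages for oxidative metabolism.

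Sequence upstream of the start was compared for members on which the results by cell type turn: Cox6b1 and Cox6b2, the common and testis-type forms of the same subunit, and Cox5a and Cox8a, which order the cell types differently. The runs below are 5′ to 3′ from RefSeq (GRCm38.p6), within 250 bases before the annotated start and without any base of an annotated exon. Capitals mark matches, on either strand, to CCGGAAG (ETS factors), TGCGCA (half-site of nuclear respiratory factor NRF1), ATGGCGG (YY1), CAGGTG (E-box), ACGTG (hypoxia response) and TTCCCAC (RBPJ).
Cox6b1: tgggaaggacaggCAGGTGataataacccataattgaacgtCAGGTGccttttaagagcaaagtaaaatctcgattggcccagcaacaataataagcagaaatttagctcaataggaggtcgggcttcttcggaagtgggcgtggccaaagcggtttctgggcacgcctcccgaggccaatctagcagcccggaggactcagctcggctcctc
Cox6b2: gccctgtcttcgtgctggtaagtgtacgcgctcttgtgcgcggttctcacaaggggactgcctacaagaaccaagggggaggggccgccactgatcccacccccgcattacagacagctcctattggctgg
Cox5a: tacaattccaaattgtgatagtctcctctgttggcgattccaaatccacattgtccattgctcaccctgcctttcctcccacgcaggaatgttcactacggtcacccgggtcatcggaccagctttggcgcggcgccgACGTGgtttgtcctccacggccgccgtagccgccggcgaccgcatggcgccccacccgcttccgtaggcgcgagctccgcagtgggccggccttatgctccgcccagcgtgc
Cox8a: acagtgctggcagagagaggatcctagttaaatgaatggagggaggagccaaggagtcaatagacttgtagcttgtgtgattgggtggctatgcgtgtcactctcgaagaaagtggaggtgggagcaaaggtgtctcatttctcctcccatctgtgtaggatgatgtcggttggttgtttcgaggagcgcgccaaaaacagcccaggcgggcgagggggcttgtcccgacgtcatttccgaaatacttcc
The Cox6b1 run lies at chr7:30626152-30626364 (minus strand) and the Cox6b2 run at chr7:4753095-4753225 (minus strand). The Cox5a run lies at chr9:57520982-57521231 (plus strand) and the Cox8a run at chr19:7217617-7217866 (minus strand). Cox6b1 held 2 matches to the E-box, Cox5a held 1 to the hypoxia motif, and the Cox6b2 and Cox8a runs held none of the 6. All 83 member symbols were found in the RefSeq gene table by symbol or synonym, and 68 had a promoter window of 300 bases (250 before the start and 50 after it). In these windows the ETS letters were present for 23.5% of members against 9.93% of all 27025 genes with a window, the NRF1 half-site for 26.5% against 8.79%, and YY1 for 14.7% against 4.69%. The E-box stood in 20.6% against 22.6%, the hypoxia motif in 26.5% against 21.8% and RBPJ in 5.88% against 7.25%. Median GC content was 57.3% in the members' windows and 52.7% in all windows. Matches to different motifs may overlap, and a match is a description of letters, not a binding site.

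The 4 libraries held 2370 to 2736 barcodes and 17618220 to 19635983 UMIs. After filtering, 9051 cells were kept (2451 and 2362 in WT, 2220 and 2018 in PD-L1 KO), with a median of 4374, 4616, 5096 and 5513 UMIs per cell in that order. No pair of libraries had more than 3 barcodes in common. The names of the deposited files carry the opposite condition to the sample labels for both groups; the groups here follow the labels, on which each direction between groups depends. Cd274, the gene of PD-L1, stood at 30.0 and 23.3 CPM in WT and 46.3 and 38.5 CPM in PD-L1 KO, but host leukocytes make it, so it does not check the labels. Cells were sorted into classes by marker gates: a cell entered a class when at least 2 of its markers had a UMI and fewer than 2 markers of every other class did. This placed 5787 cells, left 2518 with markers of 2 or more classes and 746 with too few markers, and used no member gene. An epithelial gate of 21 cells and a basophil and mast cell gate of 3 were too small for any comparison. Ptprc, the gene of CD45, ranged from 373 to 2190 CPM in the leukocyte gates, from 3.06 to 25.8 CPM in the endothelial gate and from 0 to 15.6 CPM in the fibroblast gate, so cells without CD45 passed the bead selection. The classes are rebuilt from few markers, so a gate is a marker-defined set of cells and may hold other types.

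Members together made up 1266919 UMIs, and complexes I to V supplied 31.1%, 1.89%, 10.5%, 28.1% and 28.4% of them. The 10 members with most UMIs held 30.0%. Each level below is in CPM and lists both WT libraries first (WT 1, WT 2), then both PD-L1 KO libraries (1 and 2). The kit tags 3′ ends, so a UMI count does not grow with transcript length. In complex I the most abundant members were Ndufa4 at 409, 413, 423 and 436 CPM and Ndufa13, a subunit of the membrane arm, at 311, 281, 318 and 322 CPM. The least abundant was Ndufa4l2, the hypoxia-inducible relative of Ndufa4, at 15.4, 43.9, 17.3 and 14.8 CPM. WT 2 thus stood apart for Ndufa4l2, above the other libraries. In complex II Sdhb, the iron-sulphur subunit, was at 132, 112, 144 and 147 CPM, and Sdha, the flavoprotein that binds succinate, at 101, 104, 98.9 and 93.1 CPM. Sdhd, a membrane anchor, was lowest at 40.7, 36.0, 55.0 and 51.8 CPM, with both PD-L1 KO libraries above both WT libraries.

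Uqcrh, the hinge protein of complex III, led that complex at 506, 477, 496 and 493 CPM, followed by Uqcrq at 284, 246, 300 and 322 CPM. Its scarcest member was Uqcrc2, a core protein, at 110, 101, 111 and 109 CPM. Complex III thus had no member that was nearly silent. In complex IV Cox4i1 stood at 799, 714, 819 and 853 CPM and Cox8a at 745, 668, 766 and 796 CPM, the highest levels of any member. At the other end Cox8b, known from muscle, had 1.04, 2.45, 1.54 and 1.10 CPM. In complex V Atp5e, the epsilon subunit of the catalytic head, had 622, 563, 609 and 662 CPM, and Atp5l, subunit g of the membrane part, had 530, 470, 527 and 554 CPM. Atp5s was the least abundant detected member of complex V at 3.36, 5.35, 4.19 and 3.23 CPM (58, 96, 76 and 53 UMIs). For Cox4i1, Cox8a, Uqcrq and Atp5l, WT 2 was the lowest library.

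Neutrophils carried the smallest share of member UMIs of the 9 gates tested. It was 90.4, 93.3, 95.2 and 95.2 member UMIs per 10000 UMIs in the 4 libraries, whereas the other 8 gates tested ran from 142 to 234 in any library. By mean CPM over libraries, 71 of the 81 members were lowest in neutrophils among these 9 gates. C1q macrophages had the highest mean share of the tested gates, with 215, 180, 219 and 234 per 10000. Alveolar macrophages had 192, 183, 192 and 202, NK cells 190, 198, 197 and 199, and endothelial cells 186, 185, 189 and 189. The alveolar range overlapped that of each of the others named here, whereas every NK library lay above every endothelial one. B cells were the lowest gate after neutrophils, at 147, 142, 148 and 163, below every library of the other gates but for WT 2 in T cells. T cells (182, 159, 185 and 202), monocytes (177, 171, 179 and 208) and dendritic cells (174, 169, 167 and 187) lay between and overlapped. Median depth moved with this order at its lower end: neutrophils had a median of 1746.5 UMIs per cell, against 2759 to 10048 in the other tested gates. Its part in the result was not tested.

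**Figure D1:**
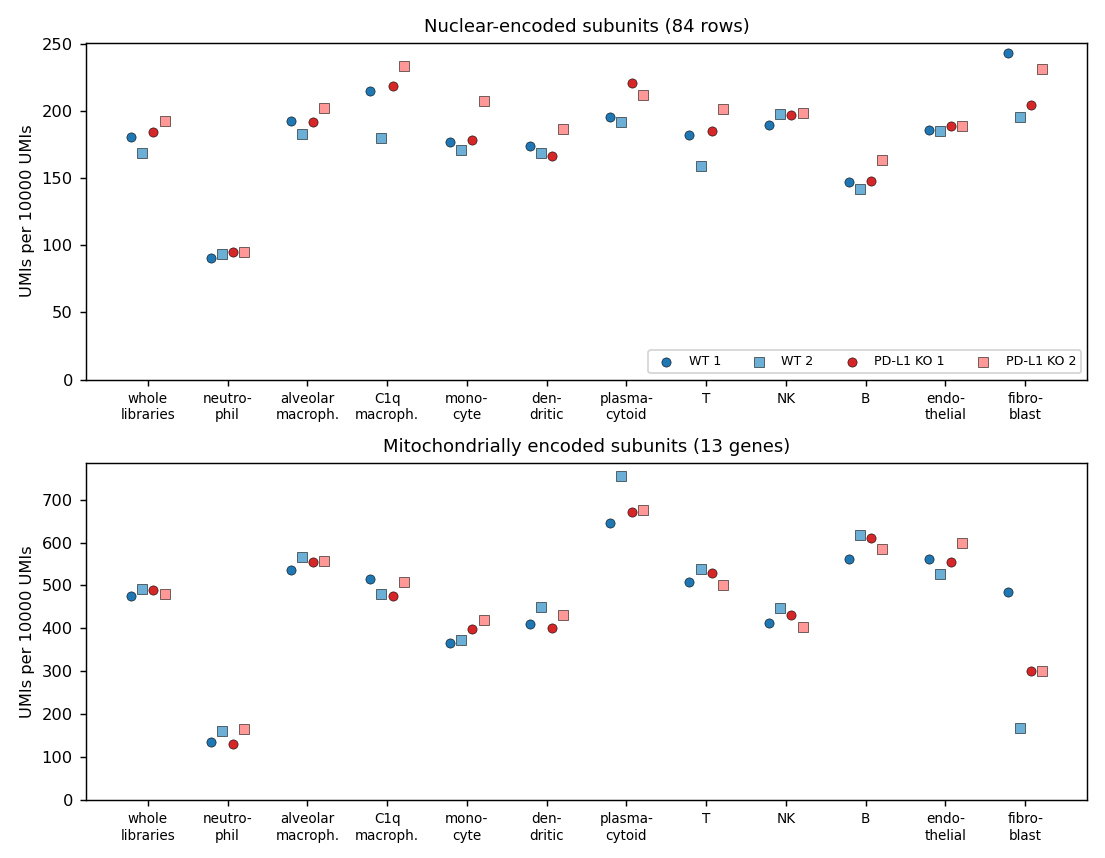
Member UMIs per 10000 UMIs (upper panel) and UMIs of the 13 mitochondrially encoded subunits per 10000 UMIs (lower panel), over whole libraries and in each marker gate; each point is 1 library. Neutrophils sit at 90.4 to 95.2 in the upper panel, below every other gate, and B cells sit low in the upper and high in the lower panel.

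Subunits encoded in mitochondrial DNA, which pair with the nuclear ones in the same complexes, did not follow the same order. Their ratio to the nuclear members was 1.58 in neutrophils and 3.96 in B cells, with NK cells at 2.16, monocytes at 2.12, T cells and alveolar macrophages at 2.88 and endothelial cells at 2.99 (means of 4 libraries). B cells therefore combined a low nuclear with a high mitochondrial share, at a mean of 593 mitochondrially encoded UMIs per 10000 against 148 in neutrophils. The mean mitochondrial share was 560 in endothelial cells, 554 in alveolar macrophages and 519 in T cells, and 687 in the small plasmacytoid gate. Cells with over 10% of UMIs from mitochondrial genes had been left out, which caps this share.

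Each gate was then compared with the mean of the other 8 in 1 edgeR quasi-likelihood fit over 9492 genes, with the library as a block; 77 members were tested. A member passed this test in 1 to 8 gates, with a median of 4. Gates differ in most of their transcriptome, so the counts of members are set beside the share of all genes called. For settings other than TMM and library totals that share is not given here. Counts under those settings do not tell a shift of the members from a shift of all genes. TMM scaling moved the zero line between gates by a median of -0.73 on the log2 scale in neutrophils, 0.34 in endothelial cells, 0.28 in NK cells, 0.21 in alveolar macrophages and -0.12 in dendritic cells relative to library totals. Cox4i2, Ndufa4l2 and Cox6b2 passed the filter on low counts only through the gate where they are high, so their values are given further on without a test. Their 6 calls are part of the 328 over all gates, and without them 322 calls remain.

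In neutrophils 44 of 77 members were lower and 7 higher, where 28.3% of all genes were lower and 33.1% higher (61.4% called). Complex I gave 22 lower and 3 higher of 37, complex III 6 lower of 8 and complex V 10 lower and 2 higher of 15. The members' median difference was -0.39 on the log2 scale against -0.02 for all genes. Ndufa9, a subunit that holds complex I together, had 14.2, 9.61, 18.4 and 6.67 CPM in neutrophils, against a mean of 70.7 CPM in alveolar macrophages, and differed by -1.58 (SE 0.22, edgeR adjusted p = 4.53e-08). Ndufa5, of the matrix arm, had 21.2, 24.0, 19.8 and 34.4 CPM and differed by -1.52 (SE 0.15, edgeR adjusted p = 2.59e-11). Both were lower in neutrophils under either scaling. Ndufb9 went the other way, at 241, 231, 263 and 260 CPM and a difference of 0.87 (SE 0.08, edgeR adjusted p = 4.02e-13), but with library totals its adjusted p was 0.0929. Cox8a had 681, 737, 721 and 733 CPM and differed by 0.66 (SE 0.07, edgeR adjusted p = 5.56e-11), and with library totals by -0.07 (adjusted p = 0.396). With library totals 72 members were lower and 0 higher in neutrophils, where 51.7% of all genes were lower and 18.8% higher, so the higher calls there depend on the scaling.

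C1q macrophages showed the opposite picture in all 5 complexes: 61 of 77 members were higher and 0 lower, where 30.5% of all genes were higher and 18.2% lower (48.7% called). The calls fell on 29 of 37 members of complex I, 3 of 4 of complex II, 5 of 8 of complex III, 11 of 13 of complex IV and 13 of 15 of complex V. The median difference was 0.38 against 0.06 for all genes, and library totals gave 62 higher and 0 lower (30.8% and 17.6% of all genes). Ndufc2, a membrane subunit of complex I, had 174, 175, 243 and 205 CPM and differed by 0.99 (SE 0.09, edgeR adjusted p = 8.38e-12). The 61 include Cox4i2, with only 1, 1, 11 and 2 UMIs in this gate, and without it 60 were higher. WT 2 was the lowest library of this gate in member share.

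Alveolar macrophages, the other macrophage gate, had a mixed pattern, with 23 members higher and 20 lower (33.8% and 27.5% of all genes, 61.2% called) and a median of -0.01. With library totals 41 were higher and 7 lower (42.6% and 19.7% of all genes), and with a mitochondrial limit of 5% on cells 15 were higher and 26 lower, so the lean depends on both choices. The median mitochondrial share in this gate was 5.17%, so the limit of 5% left out a large part of its cells. Sdhc, a membrane anchor of complex II, was at 119, 104, 109 and 107 CPM, above every library of every other tested gate, and differed by 1.14 (SE 0.11, edgeR adjusted p = 6.86e-12). Cox5a, a subunit of the catalytic core's matrix side, had 677, 635, 707 and 708 CPM there and 250, 205, 208 and 263 CPM in endothelial cells. Its differences were 0.93 (SE 0.07) in alveolar macrophages, 0.81 (SE 0.08) in C1q macrophages and -0.95 (SE 0.09) in endothelial cells, each past the edgeR test (adjusted p = 2.48e-14, 1.20e-11 and 1.15e-11). Ndufb11 (-0.78, SE 0.08) and Ndufa13 (-0.58, SE 0.07) of complex I were lower in alveolar macrophages (edgeR adjusted p = 6.87e-11 and 2.32e-09). Within 1 gate, members of the same complex thus lay on both sides of the mean of the other gates.

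**Figure D2:**
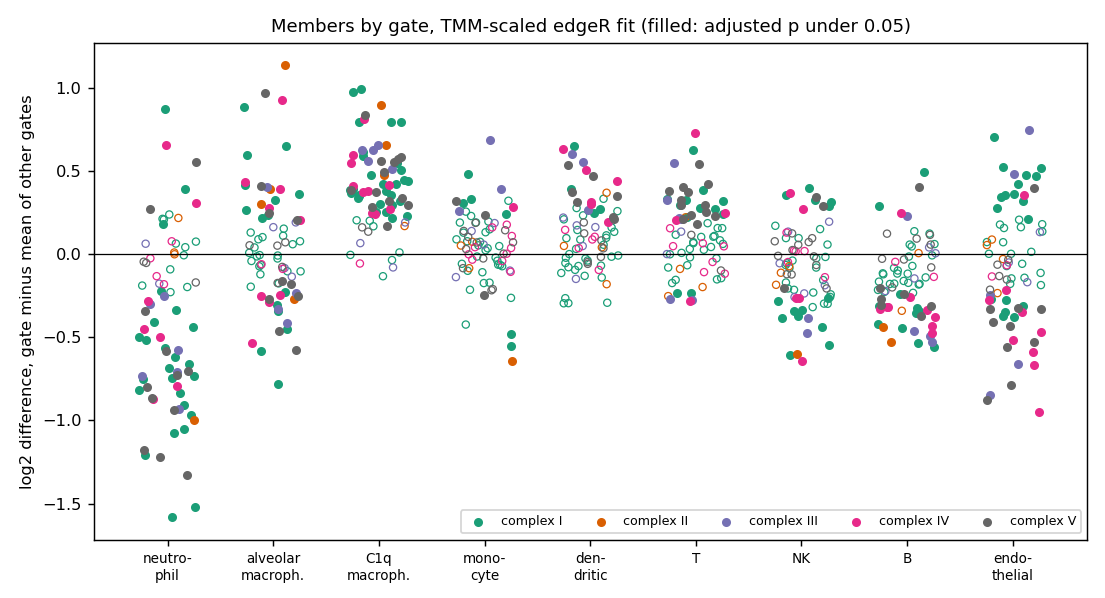
Log2 difference of each member between a gate and the mean of the other 8 tested gates (y axis), by gate (x axis) and complex (colour), from the TMM-scaled edgeR fit; filled points had an adjusted p under 0.05, and Cox4i2, Ndufa4l2 and Cox6b2 are left out because their differences run far off this axis. Neutrophils reach -1.58 and C1q macrophages have filled points above 0 and none below.

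Monocytes and dendritic cells had the fewest calls. In monocytes 10 members were higher and 4 lower (19.4% and 11.4% of all genes, 30.8% called). With library totals 17 were higher and 3 lower (21.7% and 9.06% of all genes). The TMM calls were led by Uqcrfs1, the Rieske iron-sulphur protein of complex III, at 0.69 (SE 0.09, edgeR adjusted p = 1.39e-07) and Ndufa6 at 0.48 (SE 0.07, adjusted p = 9.51e-07). With at least 3 markers asked of a cell, the counts in monocytes turned to 2 higher and 8 lower, and 170 of the 289 cells of this gate had exactly 2 markers. Sdha was lower at -0.64 (SE 0.15, edgeR adjusted p = 9.37e-04), as was Ndufa12 at -0.55 (SE 0.13, adjusted p = 5.54e-04). In dendritic cells 21 were higher and 0 lower (21.5% and 12.3% of all genes, 33.8% called), with Ndufa6 at 0.65 (SE 0.07, edgeR adjusted p = 1.02e-09). With library totals 12 were higher and 5 lower in dendritic cells (18.6% and 17.6% of all genes). Ndufa6 had 331, 370, 361 and 358 CPM there, and 363, 303, 375 and 417 CPM in monocytes. The 21 include Cox6b2, with 14 UMIs in this gate, and without it 20 were higher.

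Among lymphocytes, T cells had 30 members higher and 6 lower (31.9% and 22.3% of all genes, 54.3% called). With library totals 25 were higher and 7 lower (30.4% and 23.4% of all genes). With RLE size factors the counts were 19 and 13, and with DESeq2 23 and 14, so the lean towards higher depends on the scaling. Complex V had 13 of 15 members higher and 0 lower in T cells, and 9 higher and 1 lower with RLE. Cox7a2l, a relative of Cox7a2 known for joining complexes III and IV, stood at 563, 657, 585 and 564 CPM in T cells and at 300, 296, 323 and 323 CPM in NK cells. Its differences were 0.73 (SE 0.07, edgeR adjusted p = 1.45e-11) in T cells and -0.64 (SE 0.09, adjusted p = 2.25e-07) in NK cells, and the 2 gates did not overlap. Ndufv3 was also higher in T cells, by 0.63 (SE 0.09, edgeR adjusted p = 1.32e-07), and Cox6b1 lower, by -0.28 (SE 0.08, adjusted p = 0.00319), a call that ended with a mitochondrial limit of 5% (adjusted p = 0.0849). NK cells had 9 higher and 16 lower (19.4% and 19.1% of all genes, 38.5% called), but 33 higher and 2 lower with library totals (32.2% and 13.1% of all genes). There Ndufs4 (0.40, SE 0.12, edgeR adjusted p = 0.00991) and Cox7b (0.37, SE 0.11, adjusted p = 0.00546, and 0.0872 without WT 2) were higher, and Ndufc1 (-0.60, SE 0.12, adjusted p = 1.20e-04) was lower. The fits in NK cells called 12 members without WT 1 and 15 without PD-L1 KO 1, against 25 with all libraries.

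B cells had 28 members lower and 5 higher (18.5% and 26.4% of all genes, 44.9% called), and 30 lower and 5 higher with library totals (19.0% and 25.5% of all genes). Complex IV gave 8 lower and 1 higher of 13. Ndufb8 at -0.56 (SE 0.10, edgeR adjusted p = 1.45e-05) and Ndufa1 at -0.53 (SE 0.12, adjusted p = 2.09e-04) were the lowest of those called. Ndufs8, an iron-sulphur subunit at 102, 86.6, 96.6 and 105 CPM, was higher by 0.50 (SE 0.11, edgeR adjusted p = 3.63e-04), as was Atp5g2 by 0.40 (SE 0.07, adjusted p = 6.03e-06). With a mitochondrial limit of 5% on cells 11 members were called in B cells in place of 33, and Ndufs8, Atp5g2 and Ndufa1 were not called (adjusted p = 0.108, 0.175 and 0.765). The median mitochondrial share in the B gate was 5.95%, so that limit left out most of its cells. Endothelial cells had 18 higher and 26 lower (34.0% and 27.7% of all genes, 61.8% called), and 41 higher and 9 lower with library totals (47.2% and 18.4% of all genes). Complex I had 13 higher and 6 lower of 37, with its higher calls near the share of all genes. Complexes IV and V had 3 higher and 17 lower of 28. These counts include Ndufa4l2 and Cox4i2, and without them the gate had 16 higher and 26 lower. With library totals complex I had 26 higher and 0 lower, and complexes IV and V had 8 higher and 7 lower. The direction for complexes IV and V thus depends on the scaling. Atp5e had 441, 421, 420 and 435 CPM and was lower by -0.87 (SE 0.08, edgeR adjusted p = 9.97e-13).

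The tissue-type forms were the members that differed most between cells. Cox6a2, the heart and skeletal muscle form of subunit 6a, stood at 1720, 1604, 2061 and 2117 CPM in the plasmacytoid dendritic gate, a class known for making type I interferon. The epithelial gate of 21 cells held 0, 2, 26 and 1 UMIs of it (0, 60.1, 126 and 12.8 CPM), most of them in 1 library. C1q macrophages had 10.4, 2.47, 6.35 and 12.6 CPM, and 0 UMIs were counted in neutrophils, dendritic, NK, endothelial and fibroblast cells. A count of 0 limits Cox6a2 to 0.917 CPM in neutrophils and 1.21 CPM in endothelial cells over the pooled libraries. The plasmacytoid gate held 64 cells (14, 8, 16 and 26), of which 61 had a UMI of Cox6a2, with a median of 12 and at most 28 UMIs per cell, against 0 of 529 endothelial cells. Median depth was 6388.5 UMIs in the former and 2759 in the latter. These 64 cells held 766 of its 1863 UMIs (41.1%), and a further 492 (26.4%) lay in 57 cells with markers of both dendritic and plasmacytoid cells. Another 81 UMIs lay in 32 of 260 ungated cells with markers of both endothelial cells and fibroblasts. The other ungated cells held 124 and 34 UMIs in WT and 162 and 137 in PD-L1 KO. Of the UMIs of Cox6a1 and Cox6a2 together, Cox6a2 made up 89.9%, 88.3%, 86.3% and 87.0% in the plasmacytoid gate, while Cox6a1, the common form, was still at 194, 212, 328 and 315 CPM. Cox6a2 would pass a filter on low counts only through the plasmacytoid gate, so no test of it between gates is given.

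**Figure D3:**
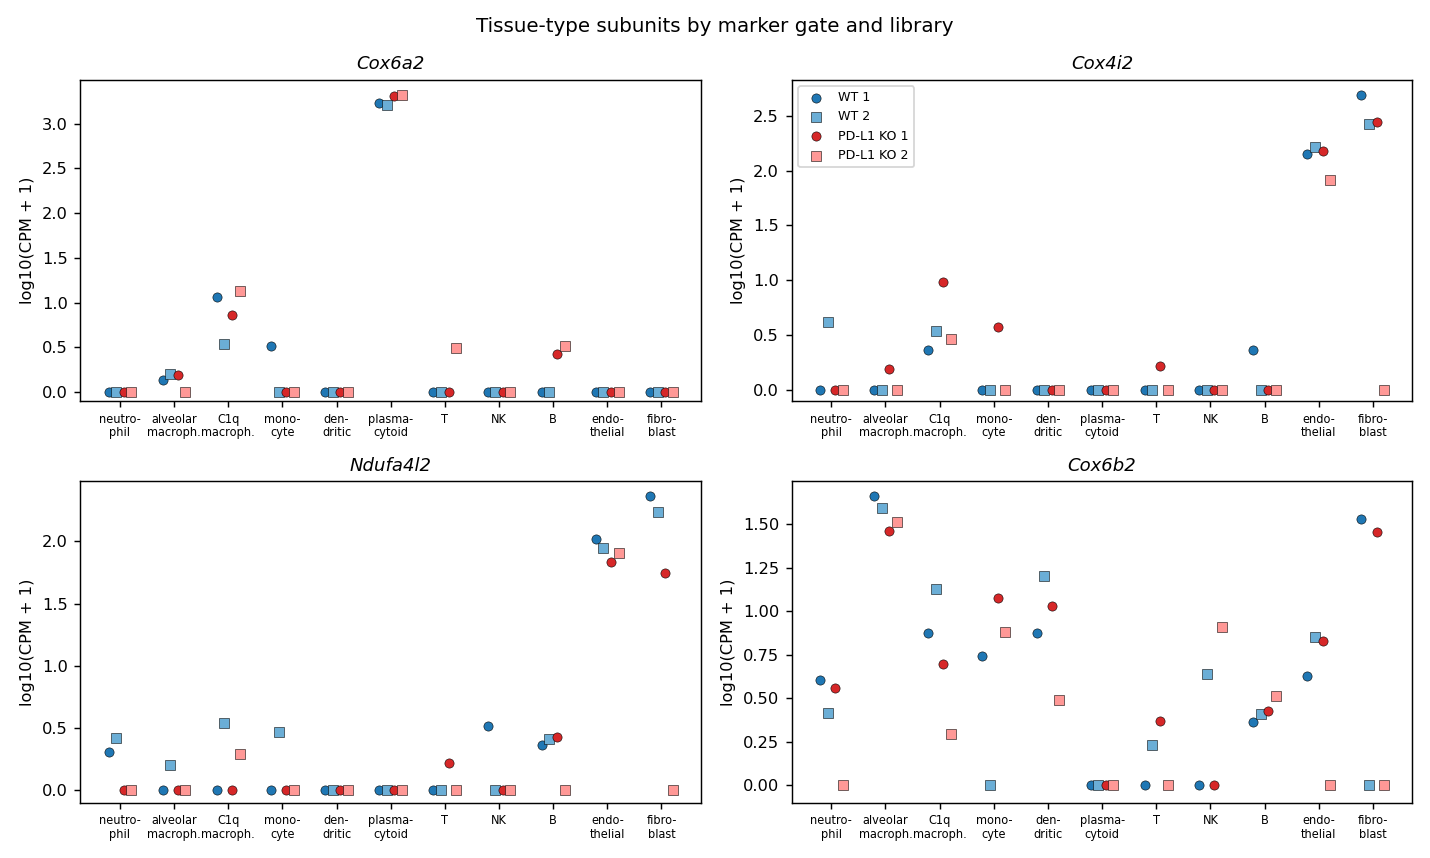
Cox6a2, Cox4i2, Ndufa4l2 and Cox6b2 as log10(CPM + 1) (y axis) by marker gate (x axis, without the epithelial and the basophil and mast cell gates); each point is 1 library. Cox6a2 is at 1604 CPM or more in the plasmacytoid gate and at 12.6 CPM or less in the other gates drawn, Cox4i2 and Ndufa4l2 are high in the endothelial and fibroblast gates, and Cox6b2 is at 27.7 to 44.9 CPM in alveolar macrophages; the fibroblast gate holds 5 to 31 cells a library.

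Cox4i2, the lung form of subunit 4, and Ndufa4l2 shared their place. Cox4i2 had 139, 164, 151 and 80.2 CPM in endothelial cells and Ndufa4l2 had 104, 87.7, 66.8 and 80.2 CPM. The small fibroblast gate had 492, 266, 273 and 0 CPM of Cox4i2 and 230, 172, 54.7 and 0 CPM of Ndufa4l2, the last library holding 5 such cells. In the leukocyte gates Cox4i2 reached at most 8.73 CPM and Ndufa4l2 at most 2.47 CPM, and 94 of 529 endothelial cells but 1 of 782 alveolar macrophages had a UMI of Cox4i2. In the epithelial gate Cox4i2 had 15 UMIs and Ndufa4l2 had 7, all in PD-L1 KO 1. Most of their UMIs were elsewhere: 2208 of 3066 for Cox4i2 (72.0%) and 1124 of 1611 for Ndufa4l2 (69.8%) lay in 260 cells that no gate took because they had 2 or more markers of both endothelial cells and fibroblasts. In those cells Cox4i2 had 254, 308, 295 and 290 CPM and made up 26.9%, 32.1%, 31.4% and 28.9% of the UMIs of Cox4i1 and Cox4i2, against 18.5%, 20.7%, 18.6% and 10.5% in the endothelial gate. Rgs5 (73.0%), Higd1b (71.8%), Kcnk3 (76.8%) and Pdgfrb (70.0%), genes known from pericytes and chosen here after their values were seen, had a like share of their UMIs in the same cells. Whether some of the 260 are droplets with more than 1 cell was not tested.

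Cox6b2, the testis form of subunit 6b, was highest in alveolar macrophages among the 9 tested gates, at 44.9, 38.2, 27.7 and 31.7 CPM, with 293 of its 625 UMIs (46.9%) in 202 of 782 cells. A further 230 UMIs (36.8%) lay in ungated cells other than those with mixed dendritic and plasmacytoid or endothelial and fibroblast markers, at 7.33, 7.34, 7.70 and 7.35 CPM. T cells held 3 UMIs and no other tested gate had more than 15.0 CPM in a library. Cox6b1 was at 515, 496, 565 and 560 CPM in the same macrophages, so Cox6b2 made up 8.02%, 7.14%, 4.68% and 5.35% of the pair. 1 library of the small fibroblast gate reached the alveolar range for Cox6b2, at 32.8 CPM on 3 UMIs. Among the Cox7a forms, Cox7a2 and Cox7a2l were both abundant (366, 353, 380 and 396 CPM, and 412, 419, 388 and 376 CPM), whereas Cox7a1, the heart form, had 3.54, 3.17, 3.69 and 4.81 CPM. Of the 3 Atp5g genes, which encode the same c subunit of the ATP synthase ring, Atp5g2 was highest at 356, 348, 395 and 377 CPM, then Atp5g1 at 212, 180, 209 and 255 CPM and Atp5g3 at 176, 157, 192 and 188 CPM. All 3 were lower in neutrophils, by -1.33, -1.22 and -1.18 (edgeR adjusted p = 5.88e-17, 1.91e-10 and 7.54e-12), and Atp5g3 was highest in alveolar macrophages, by 0.97 (SE 0.07, adjusted p = 6.99e-15).

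With TMM scaling the 4 subunits of complex II did not move as a block between gates. Sdhc was at 94.0, 61.8, 76.98 and 99.9 CPM in C1q macrophages and at 15.2, 19.2, 21.1 and 12.2 CPM in neutrophils, where its difference was -0.997. Sdhb was higher in C1q macrophages (0.66) and lower in B cells (-0.44), Sdha was higher in alveolar macrophages (0.39), and Sdhd was higher in both macrophage gates (0.48 in C1q and 0.30 in alveolar). Each of these passed the edgeR test with either scaling. Sdhb in alveolar macrophages (-0.27) and Sdhd in NK cells (-0.60) passed as lower with TMM only, and with library totals stood at -0.064 and -0.32 (adjusted p = 0.529 and 0.262). So in alveolar macrophages Sdha, Sdhc and Sdhd were higher under both scalings, and the direction of the fourth, Sdhb, was called under 1 of them. With library totals all 4 were called lower in neutrophils (Sdha -0.72, Sdhb -0.73, Sdhc -1.73 and Sdhd -0.52), beside 51.7% of all genes lower. Under the same scaling 3 were higher and 0 lower in endothelial cells, beside 47.2% of all genes higher and 18.4% lower.

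The comparison of the labelled groups asks whether cells around tumour cells without PD-L1 carried other levels of these subunits. Member UMIs made up 181 and 169 per 10000 in WT and 185 and 193 in PD-L1 KO libraries, 175 ± 8.47 against 189 ± 5.65 (SD, n = 2 each), a log2 difference of 0.11. Both PD-L1 KO libraries lay above both WT libraries, and the exact permutation test gave the smallest p that 2 against 2 libraries allow, 0.333 (two-sided). The same order was seen in 6 of 9 gates (the reverse in 0), and over 5 complexes and 9 gates in 22 of 45 values (the reverse in 0). Mitochondrially encoded subunits overlapped between the groups, at 475 and 492 against 490 and 480 per 10000. Gates share libraries and are not independent.

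By gene, edgeR called 0 of 81 members over whole libraries (0.0% of all 13986 genes called), with 3 members at an unadjusted p under 0.05, and DESeq2 called 0, with 2. In 72 of 81 members the difference was positive, with a median of 0.17 against -0.02 for all genes. In 48 members both PD-L1 KO libraries were above both WT libraries and in 5 below, where 15.2% and 26.3% of all genes were so ordered. Without WT 1 the same test called 16 members higher and 2 lower, beside 17.8% of all genes called (2584). Leaving out a library leaves 1 in an arm, which is then assumed to vary like the other group. Those 18 included Sdhd (0.69), Cox5a (0.71) and Cox6a2 (2.16) among the higher, and Ndufa4l2 (-1.33) and Cox4i2 (-1.29), the 2 lower. WT 2, the WT library then left, had the lowest member share and the most endothelial cells (230, against 109, 113 and 77). Together with the ungated cells that had markers of both endothelial cells and fibroblasts, these numbered 146 and 355 in WT and 167 and 121 in PD-L1 KO. Such cells held 83.6% of the UMIs of Cox4i2 and 83.0% of those of Ndufa4l2.

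The gate fits also gave 0 member calls, in neutrophils (0.0176% of all genes called), alveolar macrophages (0.53%, of which 0.496% higher and 0.0338% lower), C1q macrophages (0.0%), monocytes (0.0396%), dendritic cells (0.0%), T cells (0.0121%), NK cells (0.595%), B cells (0.0159%) and endothelial cells (0.014%). Of 669 values in these fits, 21 had an unadjusted p under 0.05 with edgeR and 3 with DESeq2. Members were positive in 66 of 74 for C1q macrophages (median 0.21), 68 of 74 for T cells (0.16), 64 of 74 for monocytes (0.18), 56 of 74 for neutrophils (0.13), 60 of 76 for alveolar macrophages (0.11) and 58 of 74 for B cells (0.11), with medians of all genes from -0.01 to 0.01 over the gate fits. Dendritic (42 of 74, 0.02), NK (45 of 73, 0.04) and endothelial cells (49 of 76, 0.05) were nearer to even. In T cells 37 of 74 members had both PD-L1 KO libraries above both WT libraries and 0 had them below, where 22.4% and 18.4% of all genes did. In C1q macrophages the numbers were 31 and 4 (19.2% and 21.2%) and in endothelial cells 13 and 13 of 76 (16.6% and 18.6%).

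**Figure D4:**
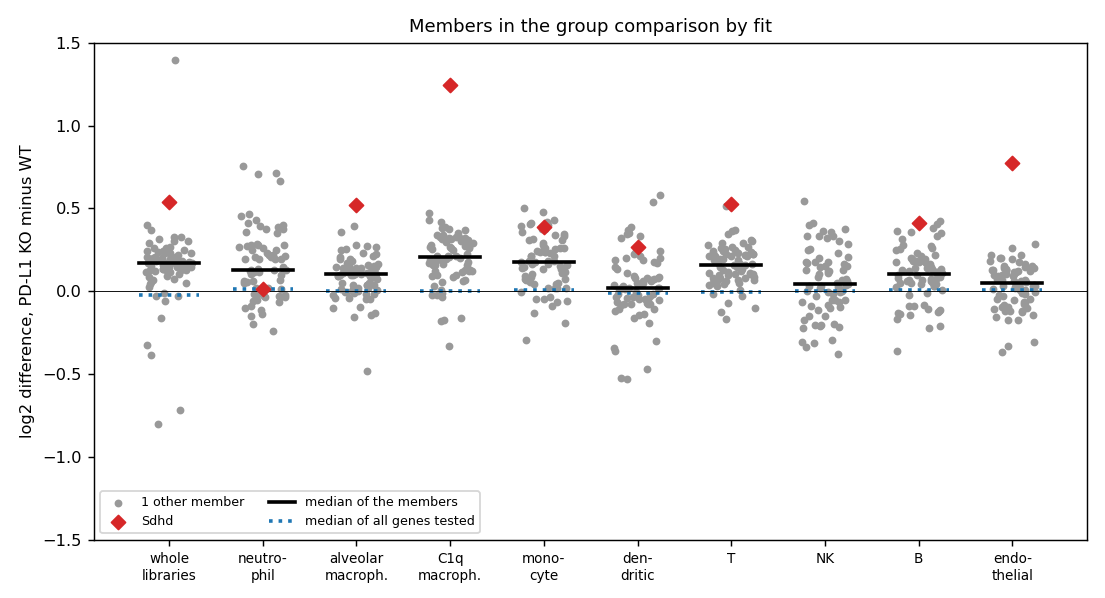
Log2 difference between libraries labelled PD-L1 KO and WT (y axis) for every member in whole libraries and in each gate (x axis); diamonds are Sdhd, solid lines the members' median and dotted lines the median of all genes tested. The members' median is above that of all genes in each fit, most in C1q macrophages at 0.21, and 0 members passed the test.

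Sdhd (chr9:50596357-50603812, minus strand) had the smallest p of any member over whole libraries, at 0.54 (SE 0.13, unadjusted p = 0.0109, edgeR adjusted p = 0.748). In C1q macrophages it had 41.8 and 19.8 CPM in WT and 70.6 and 85.3 CPM in PD-L1 KO, a difference of 1.25 (SE 0.33, unadjusted p = 0.00383, edgeR adjusted p = 0.436). In alveolar macrophages it had 49.2 and 46.3 against 74.7 and 60.9 CPM (0.52, SE 0.15, edgeR adjusted p = 0.255), and in endothelial cells 30.8 and 35.7 against 63.0 and 48.7 CPM (0.77, SE 0.28, adjusted p = 0.754). The 2 groups were apart in each of these gates, and also in T cells, monocytes and B cells. They overlapped in neutrophils (37.4 and 22.4 against 30.3 and 30.0 CPM), dendritic cells and NK cells. Sdhd was itself picked for its small p. In the gates where its groups were apart, 14.9% (B cells) to 22.4% (T cells) of all genes had both PD-L1 KO libraries above both WT libraries. A test of whether the group difference varies with the gate called 0 of 693 member values, with 10 at an unadjusted p under 0.05, and its smallest was Sdhd in C1q macrophages (0.84, unadjusted p = 0.00960, edgeR adjusted p = 0.609). In that gate the Sdhd difference was 2.05 without WT 1, a fit that leaves 1 WT library and in which many other genes moved too. With all 4 libraries and no filter on low counts, Sdhd passed the edgeR test in that gate (1.29, adjusted p = 0.00913, against 0.436 with the filter). The share of all genes called in the unfiltered fit is not given here, so whether Sdhd stands out in it cannot be read from this call.

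**Figure D5:**
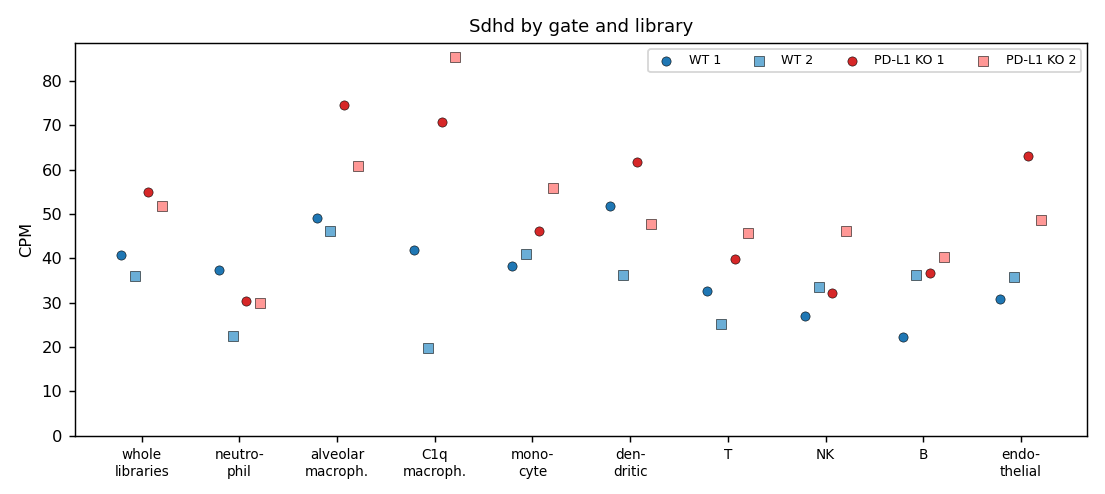
Sdhd in CPM (y axis) over whole libraries and in each tested gate (x axis); each point is 1 library. The PD-L1 KO libraries lie above both WT libraries in whole libraries and in 6 gates, most apart in C1q macrophages, and none of the differences passed the test.

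The members that came nearest to the threshold otherwise differed from gate to gate. Cox6a2 was at 21.05 and 9.35 CPM in WT and 37.0 and 40.2 CPM in PD-L1 KO over whole libraries (1.39, SE 0.42, edgeR adjusted p = 0.748), and the difference turned to -0.27 with a mitochondrial limit of 5% on cells (adjusted p = 0.890). The median mitochondrial share was 6.76% in the plasmacytoid gate, so that limit left out most of its cells. Cox6a2 moved with the number of cells that carry it: the plasmacytoid gate and the cells with both dendritic and plasmacytoid markers numbered 26 and 15 in WT and 37 and 43 in PD-L1 KO. Over whole libraries, more cells of a type and more RNA per cell cannot be told apart. In neutrophils Cox7b had 77.9 and 73.7 against 128 and 112 CPM (0.72, SE 0.19, edgeR adjusted p = 0.729), and Uqcrb differed by 0.66 (SE 0.25, adjusted p = 0.818). In T cells Ndufa11 had 123 and 89.3 against 155 and 154 CPM (0.51, SE 0.17, edgeR adjusted p = 0.509). Cox5b in alveolar macrophages had 301 and 276 against 336 and 352 CPM (0.27, SE 0.09, adjusted p = 0.411). Groups did not overlap for these, but none passed the test. They were picked for the smallest p in their fits, so separated groups come with the choice. Of all genes, both PD-L1 KO libraries lay above both WT libraries for 15.2% over whole libraries and 14.5% in neutrophils. The share was 22.4% in T cells and 16.5% in alveolar macrophages. Ndufa12 in dendritic cells had a negative value, at 153 and 173 against 114 and 116 CPM (-0.53, SE 0.24, edgeR adjusted p = 0.913), as had Ndufa4l2 in endothelial cells at -0.37 (SE 0.22, adjusted p = 0.909). The rest were Ndufa8 in C1q macrophages (0.43), Cox5a (0.42) and Atp5l (0.34) in monocytes, Sdhb in dendritic cells (0.54), Ndufa10 (0.54) and Cox6c (0.32) in NK cells and Atp5h (0.41) and Atp5f1 (0.43) in B cells, with adjusted p from 0.639 to 1.00 by edgeR.

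Genes that work with these subunits were followed by 5 lists. Over whole libraries 0 passed between the groups in any list; values nearest to it were Cycs, cytochrome c, at 0.43 (SE 0.16, edgeR adjusted p = 0.748) and Fh1, fumarase, at 0.34 (SE 0.13, adjusted p = 0.748). In T cells 0 of 13 mitochondrially encoded subunits had a positive difference (median -0.08), beside 68 of 74 nuclear members. The summed share of the 13 in T cells overlapped between the groups, at 507 and 538 per 10000 in WT and 530 and 501 in PD-L1 KO. Between gates, 13 of 13 mitochondrially encoded subunits were lower in neutrophils (median -1.02), 12 were higher in B cells (median 0.59) and 11 in T cells (median 0.33). In monocytes 11 were lower (median -0.23), and 5 with library totals. With library totals 12 were higher in each of B cells (median 0.57), alveolar macrophages (0.50) and endothelial cells (0.63), and 11 in T cells (0.29). Of all genes 25.5%, 42.6%, 47.2% and 30.4% were higher in these gates, in that order. Of 32 assembly factors tested, 18 were lower and 3 higher in neutrophils, and of 15 citric acid cycle genes 11 were lower and 2 higher, beside 28.3% of all genes lower and 33.1% higher. With library totals the counts were 27 and 2, and 14 and 1, beside 51.7% and 18.8%. Higher in neutrophils under both scalings were Cox17, the copper chaperone of complex IV, at 1.58 (SE 0.10, edgeR adjusted p = 1.50e-16; 0.85 with library totals), and Mdh2, malate dehydrogenase, at 1.41 (SE 0.09, adjusted p = 1.44e-16; 0.68 with library totals). Hif1a, the oxygen-regulated factor, was higher by 1.57 in neutrophils (SE 0.11, edgeR adjusted p = 5.45e-16, and 0.83 with library totals) and by 1.18 in T cells. With library totals the regulators gave 3 higher and 4 lower of 9 in neutrophils, beside 18.8% and 51.7% of all genes. In T cells they gave 7 higher and 0 lower, beside 30.4% and 23.4%. Slc25a4, which exchanges ADP for ATP across the inner membrane, was lower in neutrophils by -1.75 (SE 0.13, edgeR adjusted p = 5.83e-15). In alveolar macrophages Ppargc1b, a coactivator of mitochondrial genes, was higher by 2.61 and Etfb, which feeds electrons from fat oxidation, by 1.61. The regulators, the list of Ppargc1b, were mixed there, with 4 higher and 5 lower of 9 with library totals. Of all genes 42.6% were higher and 19.7% lower. In C1q macrophages the carrier and exchange genes gave 7 higher and 1 lower of 10 with either scaling, beside 30.5% and 18.2% of all genes with TMM. The smallest p there was that of Atpif1, the inhibitor of the ATP synthase, at 1.20 (SE 0.09, edgeR adjusted p = 6.80e-15). With library totals this list gave 8 higher and 0 lower in alveolar macrophages. In dendritic cells it gave 7 and 0, beside 18.6% and 17.6% of all genes.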

How the data were processed

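The authors mapped reads with STAR in Cell Ranger 3.1.0 to mm10, per the submitters' processing notes, and deposited whole-number UMI counts per gene and barcode, not normalized. The treatment of reads that fit near-identical gene copies is not stated in these sources, so members with close pseudogenes may be undercounted. The members and lists were chosen with earlier results of these data known.

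Barcodes under 200 genes, over 10% mitochondrial UMIs, or marked as doublets (Scrublet in scanpy 1.11.5, 0.8% per 1000 barcodes, 216 in all) were left out. Counts were summed per library and per marker gate; gates with at least 20 cells in every library (9 gates) were tested. After filterByExpr and TMM scaling, edgeR 4.0.16 (R 4.3.3) ran quasi-likelihood F tests, and p-values were adjusted over every gene by Benjamini-Hochberg (threshold 0.05). Group differences are PD-L1 KO minus WT with 2 residual degrees of freedom before the spread is shared over genes; gate contrasts have the library as a block. DESeq2 1.42.0 was an alternative. SE is the log2 difference divided by the square root of F. Binomial intervals and limits for 0 counts (3 counts) cover counting error only.

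Named members were, per complex, the 2 with most and the 1 with fewest UMIs; the tissue-type families chosen by name; the 2 smallest p per group fit without calls; and per gate the 2 largest called differences in each direction; for other pathway lists, the gene of smallest p. Genes shown besides these are named as such or belong to a family given. On simulated counts with log2 changes of 1, the fits recovered 93% of changed genes in whole libraries, 54% in the T gate and 96% in the neutrophil contrast. The dispersions were set (0.01 for whole libraries, 0.02 for the other 2 fits) and not estimated from these libraries, and genes with low mean counts were left out. These percentages therefore do not give the power of the tests on the members. Same-numbered libraries did not deviate together (r = -0.30 over 13986 genes).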

Additional observations from a re-analysis of the deposited data

How the results depend on the processing

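Over whole libraries 0 members passed the group test with RLE scaling, DESeq2, no filter on low counts, either other cell filter, gated leukocytes only, library totals and the replicate block; leaving out 1 library gave 0 to 18. Over the gate fits the count of 0 became 1 without a filter on low counts (Sdhd in C1q macrophages, adjusted p = 0.00913) and 0 to 3 when 1 library was left out (Sdhd, Cox5b and Ndufa10 in C1q macrophages without WT 1, Cox5a in monocytes without PD-L1 KO 1), and stayed 0 with the replicate block. The crossed pairing of replicate numbers, added after seeing the data because the numbers did not pair the libraries, gave 0 calls over whole libraries and 1 over the gate fits. Gate contrasts gave 328 member calls and 259 to 371 under the alternatives (259 to 314 leaving out 1 library); single gates moved further in T cells (23 in place of 36 with a mitochondrial limit of 5%) and dendritic cells (13 in place of 21 without a filter on low counts). The log2 difference in member share was 0.11 and ran from 0.0611 to 0.160 leaving out 1 library and from 0.0790 to 0.128 otherwise, always higher in PD-L1 KO. Cox6a2 over whole libraries turned to -0.27 (adjusted p = 0.890) with a mitochondrial limit of 5%, and Cox8a in neutrophils to -0.069 with library totals. The median mitochondrial share was 6.76% in the plasmacytoid gate, 5.95% in B cells, 5.22% in endothelial cells and 5.17% in T cells and alveolar macrophages. A limit of 5% therefore left out a large part of those cells. Of 413 other values of named gate contrasts 397 kept direction and call and 15 lost the call; of 260 in the group comparison 252 did and 7 passed. The causes were not tested. Depth limits the small gates: plasmacytoid and fibroblast gates had fewer than 20 cells in a library and were tested only in an alternative added after seeing the data.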
